A study of Sus scrofa with 8 samples.

Results

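The mRNA table of the porcine liver held 44 genes for proteins of the mitochondrial ribosome, out of 21607 mRNA identifiers listed. They were found by name, as every row whose pig gene symbol starts with MRPL or MRPS followed by a digit. The prefixes gave 30 MRPL and 14 MRPS genes. By the known structure of the particle, 31 of the proteins belong to the large subunit and 13 to the small subunit, because MRPS18A carries a small-subunit name but sits in the large subunit. The gene name table holds 65 identifiers with these prefixes, of which 21 had no row and were not analysed here. Among them were those of MRPL12, MRPS22, MRPS18C and MRPS36.

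The livers came from 4 healthy female pigs of an indigenous Chinese breed (Yanan sows) with no close blood relationship. There were 2 young sows aged 180 days (young liver, YL) and 2 old sows aged 8 years (old liver, OL), with 1 RNA sequencing library per animal, made from RNA depleted of ribosomal RNA. The young sows had not given birth, whereas the old sows had done so for many years, so that age and breeding history cannot be told apart. The labels name no treatment, and all animals were fasted overnight before slaughter. Values are given in the order of replicate 1 and replicate 2 of each age, and the replicates are separate animals.

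The mitochondrial ribosome is a separate ribosome inside the organelle that translates the small set of proteins still encoded in mitochondrial DNA, all of them subunits of the oxidative phosphorylation complexes. Its ribosomal RNAs are made in the mitochondrion, whereas its proteins, including all those described here, are encoded in the nucleus, made in the cytosol and imported. Many of them descend from bacterial ribosomal proteins, and others were added in the mitochondrial lineage. Hepatocytes are rich in mitochondria, and inherited defects of several of these proteins cause mitochondrial disease that can involve the liver.

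Measured levels are in CPM, that is, the reads of a gene relative to a read total of its library, with every library scaled to the same total. The read total was inferred from the values, and which reads it counts is not given in the sources used here. CPM is not divided by gene length, so a level is compared between livers for 1 gene and never between genes. The libraries held 37.6 M and 37.1 M mRNA reads in YL and 22.5 M and 24.9 M in OL. All 44 genes were above 0 in all 4 livers and entered the test. The fewest reads of any of them were 45 and 93 in YL (MRPS2 in both) and 56 (MRPL3) and 86 (MRPL19) in OL, the most were 5752 and 7488 in YL (MRPL22 in both) and 4907 and 3900 in OL (MRPS33 in both), and together the genes held 35049 to 56136 reads per library. Listed mRNAs took 40.9% and 42.9% of the library total in YL and 36.5% and 34.6% in OL, a difference that moves every CPM value and is returned to below.

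The tissue label was checked first. Of 9 hepatocyte markers, 8 had a row, and their summed level was 48785 and 55725 CPM in YL and 34710 and 41928 CPM in OL. The largest part was ALB, at 29468 and 35205 CPM in YL and 16534 and 23978 CPM in OL. Of the 8 markers, 5 were lower and 3 higher on average in OL, and in 6 the ages overlapped. Their median log2 fold change was -0.16, or 0.04 when scaled by trimmed mean of M values. Of 7 macrophage markers, 4 had a row (CD14, CD68, CSF1R and MARCO), and all 4 were higher on average in OL, with a summed level of 50.9 and 50.1 CPM in YL and 85.0 and 134 CPM in OL. The endothelial markers with a row, 3 of 6, summed to 23.4 and 20.5 CPM in YL and 63.9 and 28.1 CPM in OL. All 3 were higher on average in OL, with LYVE1 at 36.5 CPM in old replicate 1 and 7.49 CPM in old replicate 2. The erythroid markers, 3 of 5, summed to 622 and 429 CPM in YL and 306 and 405 CPM in OL. Nearly all of that was HBB, and of the 3 markers 2 were lower and 1 higher on average in OL. T and NK cell markers (6 rows, 5 higher and 1 lower on average in OL) stood at 8.80 and 10.5 CPM in YL and 18.5 and 10.7 CPM in OL. The lower row was of GZMA, at 3.31 and 3.33 CPM in YL and 2.08 and 1.34 CPM in OL. GZMA also had a row among the higher, which was at 0 in both young livers and passed the filter through the old livers alone. Of the other lists, 6 of 7 stellate cell and fibroblast markers (LUM at 0 in young replicate 2), 2 of 4 cholangiocyte markers and 1 of 5 skeletal muscle markers had a row. The stellate cell and fibroblast markers summed to 18.6 and 36.9 CPM in YL and 13.3 and 51.3 CPM in OL. Of them, 3 were higher and 3 lower on average in OL. Whether these shifts had a part in the differences between ages given below was not tested, and in whole tissue fewer cells of a type and less RNA per cell cannot be told apart.

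With the values as deposited, most genes of the mitochondrial ribosome were lower in OL than in YL, many of them slightly. By the ratio of means, MRPS2, MRPL28, MRPL4 and MRPS18A were 1.98 to 2.55 times higher in OL. In the other direction, MRPL3, MRPL47 and MRPS35 were 2.14 to 2.35 times higher in YL. Of the 44 genes, 32 had a mean log2 level below that of YL and 12 a level above it, with a median log2 fold change of -0.20 and a range from -0.91 for MRPL47 to 1.16 for MRPL28. None passed the test of limma over 16898 mRNAs, which asked for an adjusted p under 0.05 and an absolute log2 fold change above 1, and the same test called 0 (0%) of all mRNAs. The smallest adjusted p among the genes was 0.213, which was also the smallest among all mRNAs. At an unadjusted p under 0.05 there were 5 genes higher in OL (11.4%) and 7 lower (15.9%), beside 1145 higher (6.78%) and 1509 lower (8.93%) of all mRNAs. Which genes were under that level changed when a liver was left out. The median log2 fold change of the 44 genes was -0.22 without young replicate 1 and -0.25 without young replicate 2. Without old replicate 1 it was -0.28, and without old replicate 2 it was -0.21. With 2 livers per age, the differences of single genes are therefore given as measured values.

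How far the livers of the 2 ages were apart was also read directly from the levels. In 17 genes (38.6%) both OL values lay below both YL values, in 7 genes (15.9%) both lay above, and in the other 20 the ages overlapped. Over all mRNAs tested, 25% lay below and 24.4% above in this way. Those mRNAs include many of very low level, and among the 9790 mRNAs with a mean of at least 1 CPM the shares were 32.9% below and 17.8% above. In that set 60% of mRNAs had a log2 fold change below 0, beside 72.7% of the ribosomal protein genes and 52.9% of all mRNAs tested. The median log2 fold change was -0.15 in mRNAs with a mean of at least 1 CPM and -0.02 in all mRNAs tested (0.02 without young replicate 1). The genes thus stood close to other mRNAs of a similar minimum level, and no test of the list against other genes was made.

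**Figure D1:**
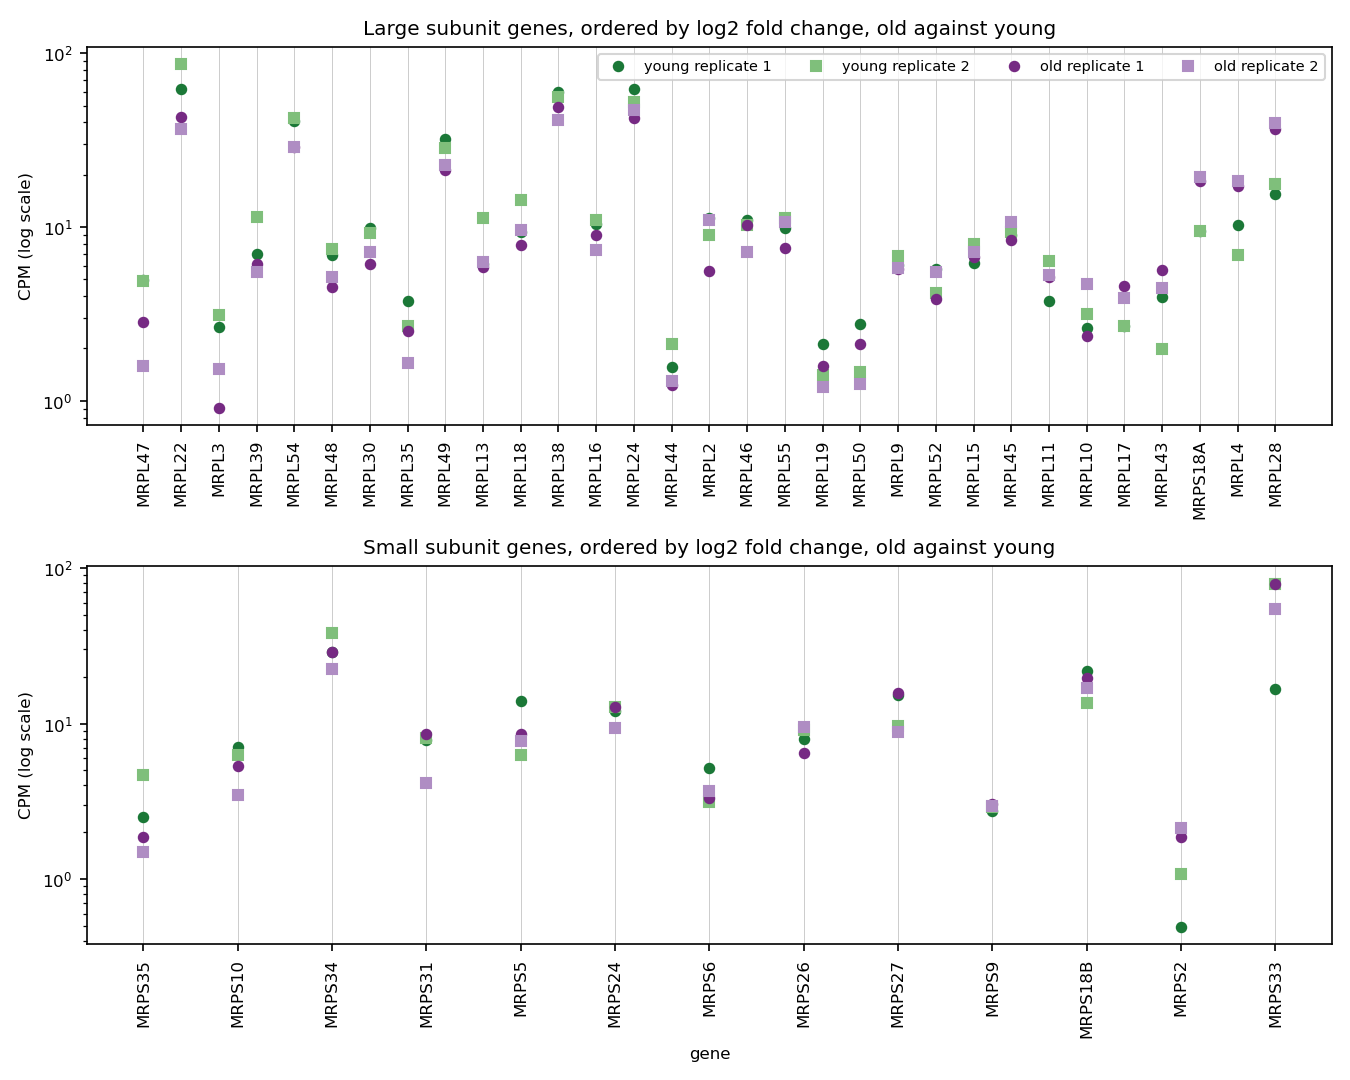
Level of each of the 44 genes in each liver, in CPM on a log axis, with the 31 large-subunit genes above and the 13 small-subunit genes below, ordered by log2 fold change; circles are replicate 1 and squares replicate 2, green for young and purple for old livers. At the right end of the large subunit both purple points of MRPS18A, MRPL4 and MRPL28 lie above both green points, and in MRPS33 the young livers stand apart at 16.8 and 79.5 CPM.

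Part of the small difference depended on how the libraries were scaled. Scaling by trimmed mean of M values (TMM), which sets the bulk of mRNAs level between libraries, raised the median log2 fold change of mRNAs with a mean of at least 1 CPM by 0.15, to 0.00. Under it the ribosomal protein genes had a median of -0.07, with 26 genes lower (59.1%, beside 50% of mRNAs with a mean of at least 1 CPM) and 18 higher. The ages did not overlap in 11 genes that were lower (25%) and 8 that were higher (18.2%), beside 24.4% and 23.7% of mRNAs with a mean of at least 1 CPM. The direction of 6 genes turned (MRPL9, MRPL15, MRPL52, MRPS24, MRPS26 and MRPS27), all of them within 0.18 of 0 before scaling. As a share of listed mRNA reads the direction of 9 genes turned, which left 23 genes lower and 21 higher in OL. Among mRNAs with a mean of at least 1 CPM, 4731 were then lower and 5059 higher.

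Genes of the large subunit that descend from bacterial proteins numbered 19, of which 5 were higher and 14 lower in OL, with a median log2 fold change of -0.31, or -0.12 without young replicate 2. MRPL28, the counterpart of bacterial L28, had the largest fold change of all 44 genes on the log2(CPM + 1) scale. The plain ratio of the means was larger in MRPS2 (2.55 against 2.30) and, in the other direction, in MRPL3 (2.35). MRPL28 was at 15.6 and 17.6 CPM in YL and at 36.7 and 39.7 CPM in OL. Both old livers were thus above 2 times the level of either young liver. Its log2 fold change was 1.16 (SE 0.13; limma adjusted p = 0.213) and stayed between 1.07 and 1.24 when any single liver was left out. MRPL4, whose bacterial counterpart lines the tunnel through which the new protein leaves, was at 10.245 and 6.92 CPM in YL and at 17.2 and 18.5 CPM in OL. The old livers were close to each other and above both young livers, with a log2 fold change of 0.998 (SE 0.23; limma adjusted p = 0.250). MRPL17, the counterpart of bacterial L17, was at 2.71 and 2.69 CPM in YL and at 4.55 and 3.91 CPM in OL (log2 fold change 0.50, SE 0.13; limma adjusted p = 0.265). Again the ages did not overlap, at a smaller difference.

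The same class also held the genes that were lowest in OL relative to YL. MRPL47, which carries a domain related to bacterial L29 near the tunnel exit, was at 4.94 and 4.91 CPM in YL and at 2.84 and 1.59 CPM in OL. The young livers were almost equal, and the old livers were both lower but differed 1.79 times from each other (log2 fold change -0.91, SE 0.25; limma adjusted p = 0.274). MRPL22, another protein of the exit tunnel, was at 62.6 and 86.5 CPM in YL and at 43.03 and 36.9 CPM in OL, with a mean in OL of 0.536 times that in YL (log2 fold change -0.87, SE 0.23; limma adjusted p = 0.267). MRPL3, the counterpart of L3 close to the site of peptide bond formation, was at 2.65 and 3.10 CPM in YL and at 0.910 and 1.53 CPM in OL (log2 fold change -0.81, SE 0.20; limma adjusted p = 0.260). In all of these the ages did not overlap. Proteins of the exit tunnel thus stood at opposite ends of the range, with MRPL4 among the highest fold changes and MRPL22 among the lowest. MRPL24, also near the tunnel exit, was at 62.3 and 52.4 CPM in YL and at 42.6 and 47.3 CPM in OL, a small difference without overlap (log2 fold change -0.34, SE 0.15; limma adjusted p = 0.421).

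The proteins of the large subunit without a bacterial counterpart there numbered 12, of which 3 were higher and 9 lower in OL, with a median log2 fold change of -0.30. Of these 3 higher genes, MRPS18A had the smallest SE. Its level was 9.49 and 9.47 CPM in YL and 18.3 and 19.3 CPM in OL, that is, 1.98 times higher on average in OL with little spread within either age (log2 fold change 0.92, SE 0.11; limma adjusted p = 0.213). MRPL43 was at 3.96 and 1.99 CPM in YL and at 5.655 and 4.455 CPM in OL, higher in both old livers but with young livers that differed 1.99 times from each other (log2 fold change 0.65, SE 0.33; limma adjusted p = 0.455). MRPL54 was at 40.7 and 42.2 CPM in YL and at 28.8 and 28.7 CPM in OL, the opposite order with equally close replicates (log2 fold change -0.51, SE 0.11; limma adjusted p = 0.242). MRPL39 was at 6.97 and 11.4 CPM in YL and at 6.14 and 5.50 CPM in OL (log2 fold change -0.55, SE 0.28; limma adjusted p = 0.458). MRPL38 was at 59.6 and 56.3 CPM in YL and at 48.7 and 41.2 CPM in OL (log2 fold change -0.36, SE 0.15; limma adjusted p = 0.377). Both were lower in OL without overlap. MRPL44, a protein related to RNase III whose inherited defects cause a mitochondrial heart disease, was at 1.56 and 2.13 CPM in YL and at 1.235 and 1.295 CPM in OL, from 76 to 184 reads per liver (log2 fold change -0.32, SE 0.16; limma adjusted p = 0.445).

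**Figure D2:**
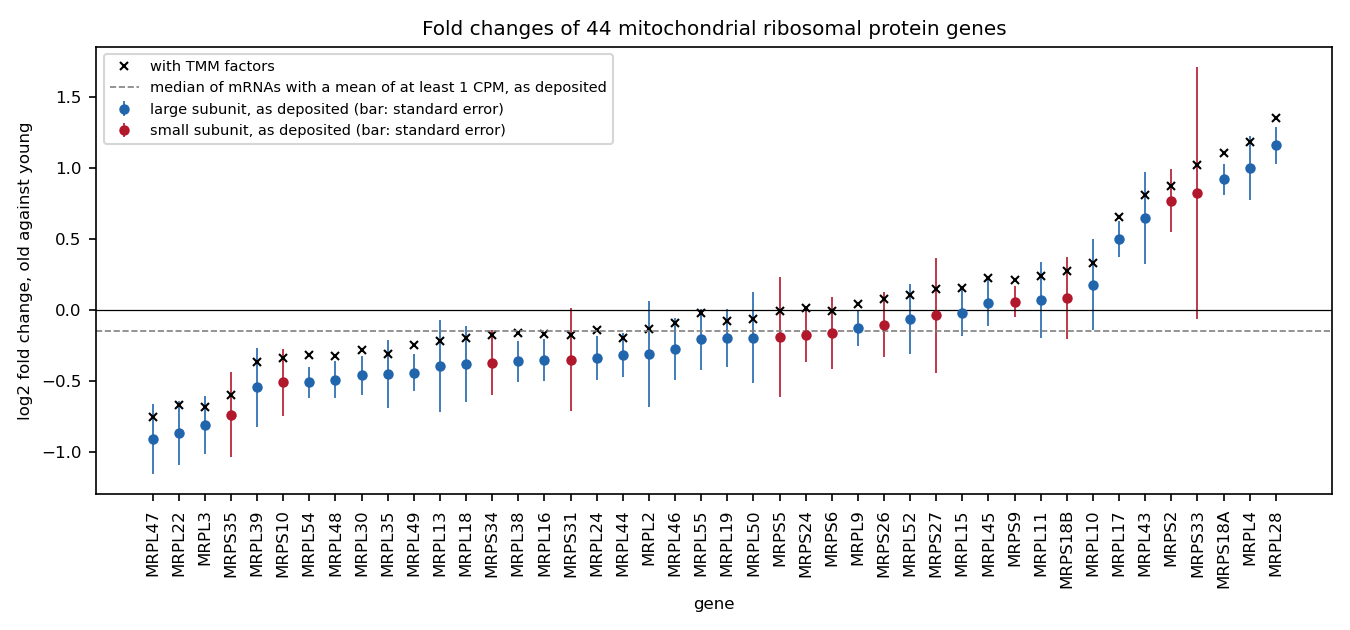
Log2 fold change of each of the 44 genes, old against young, ordered from lowest to highest; points are the values as deposited (blue for the large and red for the small subunit, bars 1 standard error of limma with 2 livers per age), crosses the values under TMM scaling, and the dashed line the median of -0.15 over mRNAs with a mean of at least 1 CPM. Most points lie between -0.5 and 0, the crosses sit higher throughout, and MRPL28, MRPL4 and MRPS18A stand at the upper end while MRPS33 has the longest bar.

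The small subunit was close to the large one in the share of genes lower in OL as deposited, at 69.2% against 74.2%. Of its 13 genes, 4 were higher and 9 lower in OL, with a median log2 fold change of -0.17, which became 0.01 under TMM scaling and 0.03 without old replicate 2, whereas the median of the large subunit was -0.31 as deposited and -0.13 under TMM scaling. Without overlap between ages, 2 small-subunit genes were higher (15.4%) and 3 lower (23.1%), and 5 large-subunit genes were higher (16.1%) and 14 lower (45.2%), beside the 17.8% and 32.9% of mRNAs with a mean of at least 1 CPM. The livers of a single age also differed more here, since the young livers had a median absolute log2 difference from each other of 0.48 in the small and 0.19 in the large subunit. Whether the subunits differ in their response was not tested.

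Within the small subunit, 6 genes have bacterial counterparts. MRPS2 was at 0.490 and 1.07 CPM in YL and at 1.85 and 2.14 CPM in OL, which came from 45 and 93 reads and from 114 and 154 reads. It had the fewest reads of the 44 genes in both young livers, and both old livers were above both young livers, although the young livers differed 2.19 times (log2 fold change 0.77, SE 0.22; limma adjusted p = 0.285). MRPS10 was at 7.03 and 6.24 CPM in YL and at 5.38 and 3.48 CPM in OL, lower without overlap (log2 fold change -0.51, SE 0.23; limma adjusted p = 0.422). The only other gene of the class without overlap was MRPS9, named here because of that, at 2.74 and 2.92 CPM in YL and 3.04 and 2.94 CPM in OL, with a difference of 0.06 on the log2 scale.

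The other 7 small-subunit genes encode proteins specific to mitochondria. MRPS33 was at 16.8 and 79.5 CPM in YL and at 79.7 and 54.3 CPM in OL. Young replicate 1 stood far below the other 3 livers, and its fellow young liver was level with old replicate 1 (log2 fold change 0.82, SE 0.89; limma adjusted p = 0.721). Without young replicate 1 the log2 fold change was -0.27, so the direction rested on that single liver. MRPS35 was at 2.515 and 4.66 CPM in YL and at 1.85 and 1.504 CPM in OL (log2 fold change -0.74, SE 0.30; limma adjusted p = 0.380). MRPS34, whose inherited defects impair mitochondrial translation, was at 29.1 and 38.1 CPM in YL and at 29.0 and 22.4 CPM in OL (log2 fold change -0.37, SE 0.23; limma adjusted p = 0.535). In MRPS34 the higher old liver almost reached the lower young liver. MRPS18B, the small-subunit paralog of MRPS18A, was at 22.0 and 13.6 CPM in YL and at 19.7 and 17.1 CPM in OL, with both old livers between the young ones (log2 fold change 0.08, SE 0.29; limma adjusted p = 0.931). The paralogs therefore differed in their values, with no overlap between ages in MRPS18A and full overlap in MRPS18B, and the difference between them was not tested.

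Tests on read counts gave their smallest p-values among the 44 genes to MRPL28, MRPL4 and MRPS18A. DESeq2 on the whole reads recovered from the CPM values called MRPL28 (DESeq2 adjusted p = 0.00347), MRPS18A (0.0187) and MRPL4 (0.0432), each as higher in OL, among 683 mRNAs called higher (4.04%) and 197 called lower (1.17%), and it called no ribosomal protein gene lower. The exact test of edgeR called none of the 44 genes, with adjusted p = 0.125 for MRPL28, 0.233 for MRPL4 and 0.240 for MRPS18A, beside 457 mRNAs called higher (2.7%) and 77 lower (0.456%). At an unadjusted p under 0.05 the exact test had 3 of the genes higher and 0 lower, beside 1740 (10.3%) and 457 (2.7%) of all mRNAs. The quasi-likelihood test of edgeR called 0 of the genes and 0 of all mRNAs, with 3 genes higher and 0 lower at an unadjusted p under 0.05, beside 1954 (11.6%) and 520 (3.08%) of all mRNAs. The 3 genes were MRPL28, MRPL4 and MRPS18A in both edgeR tests. Among the 7 genes with an unadjusted limma p under 0.05 that were lower in OL, none kept that level in a count test.

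Some of these genes overlap a neighbour in the genome, taken here by gene span on either strand. In the RefSeq annotation of the pig (assembly Sscrofa11.1, used for neighbourhood only), 15 of the 44 genes overlap another gene and 12 overlap a protein-coding gene. Among the genes whose CPM values are given above, these are MRPL28 with TMEM8A, MRPL43 with TWNK, MRPL47 with ACTL6A, MRPS18B with PPP1R10 and MRPS2 with LOC110258970. MRPL22 and MRPL3 overlap pseudogenes and MRPL17 a long noncoding RNA. MRPL9 overlaps OAZ3, and MRPL49 overlaps SYVN1 and FAU. No mRNA tested carried the symbol TMEM8A, and other names for it were not looked up, so the neighbour of MRPL28 was not read. Whether strand was used in counting is not given in the sources used here, so the counts of these genes are uncertain where they overlap. ACTL6A, a subunit of chromatin remodelling complexes, was at 1.905 and 1.895 CPM in YL and at 0.959 and 1.11 CPM in OL, lower like MRPL47 (log2 fold change -0.51; limma adjusted p = 0.247). TWNK, the helicase of mitochondrial DNA, was at 1.55 and 0.936 CPM in YL and at 0.975 and 0.710 CPM in OL (log2 fold change -0.27), the opposite direction to MRPL43. MRPS18A and MRPL4 overlap no other gene in that annotation.

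Summed over all 44 genes, the level was 575 and 649 CPM in YL and 570 and 527 CPM in OL (612 ± 51.7 against 548 ± 29.8, SD, n = 2). The ages did not overlap, but the higher old liver almost reached the lower young liver. The single gene MRPS33 made much of that spread, and without it the sums were 559 and 569 CPM in YL and 490 and 473 CPM in OL, or 0.854 times as high in OL. The large subunit summed to 432 and 453 CPM in YL and 373 and 380 CPM in OL. The small subunit summed to 143 and 195 CPM in YL and 196 and 147 CPM in OL, overlapping between ages. Without MRPS33 its sums were 126.2 and 115.7 CPM in YL and 116.3 and 92.7 CPM in OL, still overlapping. The mean in OL was then 0.864 times that in YL, beside 0.851 times in the large subunit. Under TMM scaling the sums of all 44 genes were 525 and 619 in YL and 611 and 565 in OL, also overlapping, and as a share of listed mRNA reads they were 0.141% and 0.151% in YL and 0.156% and 0.152% in OL. The sums were thus lower in OL as a share of the inferred read total of the library and higher as a share of listed mRNA reads. They are given without a test, since 2 against 2 livers allow no exact permutation p below 0.333.

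**Figure D3:**
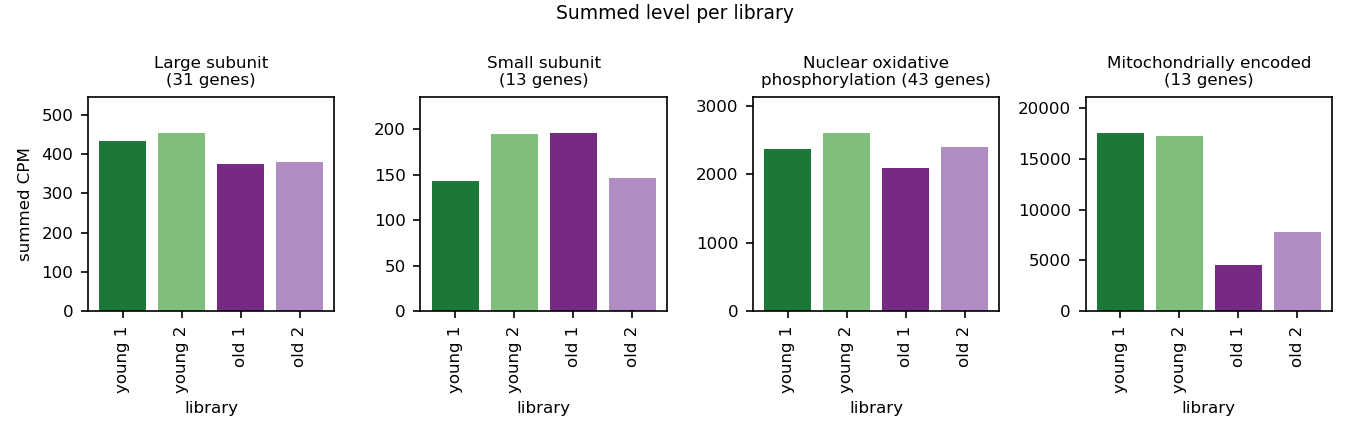
Summed level in CPM per liver for the large subunit (31 genes), the small subunit (13 genes), nuclear genes of oxidative phosphorylation (43 genes) and the mitochondrially encoded mRNAs (13 genes); each bar is 1 library, every axis starts at 0 and the axes differ between panels. The large subunit is lower in both old livers than in both young livers, whereas the small subunit and the nuclear genes of oxidative phosphorylation overlap between ages. The mitochondrially encoded mRNAs are at 17540 and 17219 CPM in the young and 4561 and 7844 CPM in the old livers.

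The mRNAs that this ribosome translates stood apart from the genes of the ribosome itself. All 13 protein-coding genes of mitochondrial DNA had a row, with a median log2 fold change of -1.84 (-1.64 under TMM scaling). In 12 of them (92.3%) both OL values lay below both YL values, and in 1 (7.69%) both lay above. Among mRNAs with a mean of at least 1 CPM the shares were 32.9% and 17.8%, and among all mRNAs tested 25% and 24.4%. The summed level of the 13 genes was 17540 and 17219 CPM in YL and 4561 and 7844 CPM in OL, or 0.357 times as high in OL. ATP8, a subunit of ATP synthase, was at 415 and 387 CPM in YL and at 51.5 and 133 CPM in OL (log2 fold change -2.26, SE 0.54; limma adjusted p = 0.255). ND6, a subunit of complex I, was at 1085 and 634 CPM in YL and at 159 and 200 CPM in OL (log2 fold change -2.21, SE 0.35; limma adjusted p = 0.216). ND4L, also of complex I and named because it was the only exception, was at 165 and 151 CPM in YL and at 259 and 442 CPM in OL (log2 fold change 1.10, SE 0.32; limma adjusted p = 0.288). None passed the limma test. At an unadjusted limma p under 0.05 there were 12 lower and 1 higher, beside 8.93% and 6.78% of all mRNAs tested. ATP8 overlaps ATP6 and ND4L overlaps ND4 in mitochondrial DNA, so that their separate counts are uncertain. For each 1000 CPM of mitochondrially encoded mRNA, the 44 ribosomal protein genes had 32.8 and 37.7 CPM in YL and 125 and 67.2 CPM in OL.

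Nuclear genes for the same complexes and genes for the cytosolic ribosome were set beside them. Of 43 nuclear oxidative phosphorylation genes, 12 were higher and 31 lower in OL, with a median log2 fold change of -0.33 (-0.14 under TMM scaling) and a sum of 2361 and 2600 CPM in YL and 2087 and 2396 CPM in OL. For each 1000 CPM of these genes, the mitochondrial ribosomal protein genes had 244 and 249 CPM in YL and 273 and 220 CPM in OL, so that the young livers lay between the old ones. Of 28 cytosolic ribosomal protein genes, 4 were higher and 24 lower, with a median of -0.34 (-0.15 under TMM scaling) and a sum of 7624 and 8012 CPM in YL and 5285 and 7132 CPM in OL. With all livers both medians were below the -0.20 of the mitochondrial ribosomal protein genes. Without old replicate 1 the order turned, with -0.28 for the mitochondrial ribosomal protein genes, -0.20 for the oxidative phosphorylation genes and -0.24 for the cytosolic ribosomal protein genes, and without old replicate 2 the cytosolic median was -0.55. The difference between lists was not tested.

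**Figure D4:**
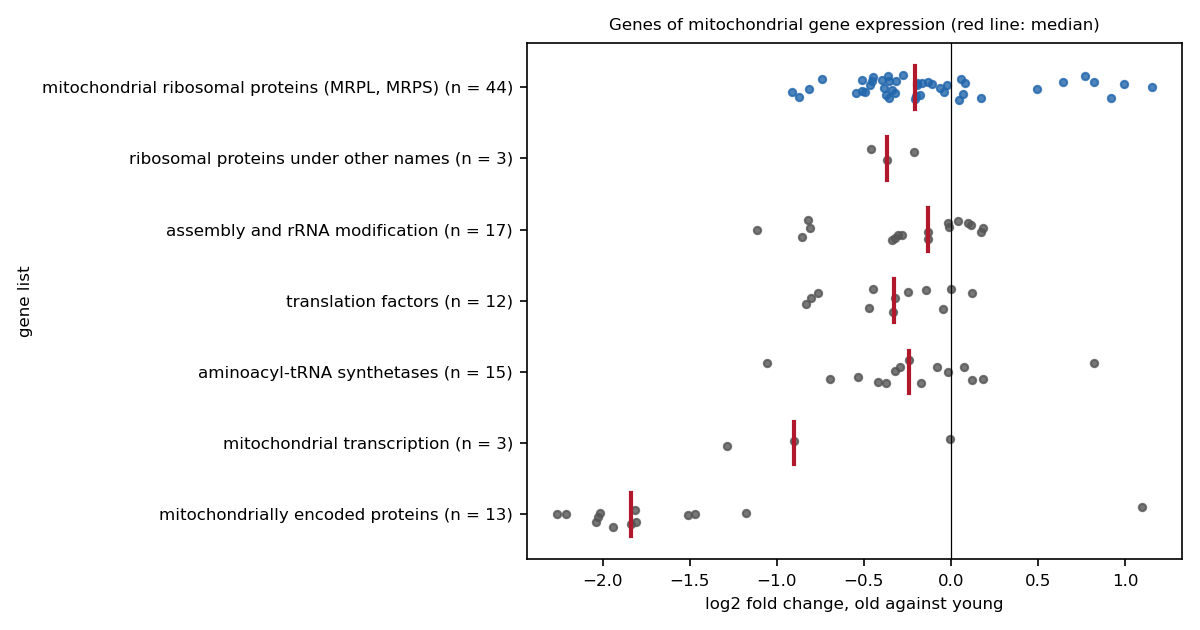
Log2 fold change, old against young, of every gene with a row in 7 lists of mitochondrial gene expression; each point is 1 gene, the vertical scatter within a list has no meaning, and red lines mark medians. The 44 ribosomal protein genes lie around a median of -0.20, and the mitochondrially encoded mRNAs around -1.84 with ND4L alone to the right of 0.

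The other nuclear genes that serve mitochondrial translation were read from lists by role. Of 6 proteins of the mitochondrial ribosome whose symbols lack the MRPL and MRPS prefixes, 3 had a row and all 3 were lower in OL, with a median log2 fold change of -0.37. DAP3, a GTP-binding protein of the small subunit, was at 7.81 and 6.93 CPM in YL and at 5.96 and 5.03 CPM in OL (log2 fold change -0.37, SE 0.15; limma adjusted p = 0.377). CHCHD1, also of the small subunit, was at 8.58 and 7.625 CPM in YL and at 5.75 and 5.50 CPM in OL (log2 fold change -0.46, SE 0.12; limma adjusted p = 0.274). In both genes the ages did not overlap.

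Factors that assemble the ribosome or modify its RNA had 17 of 25 genes with a row, 5 higher and 12 lower in OL, with a median of -0.13 that was -0.0564 without young replicate 1 and -0.37 without young replicate 2. TRMT2B, a methyltransferase of mitochondrial RNA, was at 5.67 and 3.35 CPM in YL and at 1.27 and 1.73 CPM in OL (log2 fold change -1.12, SE 0.28; limma adjusted p = 0.264). METTL17, an assembly factor of the small subunit, was at 4.83 and 3.51 CPM in YL and at 2.535 and 1.28 CPM in OL (log2 fold change -0.85, SE 0.31; limma adjusted p = 0.342). Both were lower in each old liver. Without overlap, 5 genes of this list were lower (29.4%) and 0 higher, beside 25% and 24.4% of all mRNAs tested. Among mRNAs with a mean of at least 1 CPM the shares were 32.9% and 17.8%.

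Translation factors and partners of mitochondrial mRNA had 12 of 15 genes with a row, 2 higher and 10 lower, with a median of -0.33. LRPPRC and SLIRP form a complex that binds and stabilises mitochondrial mRNAs. LRPPRC was at 9.98 and 9.38 CPM in YL and at 5.04 and 5.22 CPM in OL, with close replicates at both ages (log2 fold change -0.80, SE 0.11; limma adjusted p = 0.213). SLIRP was at 54.6 and 24.2 CPM in YL and at 19.8 and 20.3 CPM in OL, where young replicate 1 was far above the other 3 livers (log2 fold change -0.83, SE 0.46; limma adjusted p = 0.492).

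The synthetases that charge mitochondrial tRNAs had 15 of 20 genes with a row, 4 higher and 11 lower. Their median of -0.24 rested on young replicate 1, since without it the median was at 0.00, and without old replicate 1 it was -0.11. IARS2, for isoleucine, was at 12.2 and 8.70 CPM in YL and at 4.66 and 4.22 CPM in OL (log2 fold change -1.06, SE 0.21; limma adjusted p = 0.230). PARS2, for proline, went the other way, at 1.31 and 1.225 CPM in YL and 3.01 and 3.01 CPM in OL (log2 fold change 0.82, SE 0.11; limma adjusted p = 0.213). Of the list, 4 genes were lower (26.7%) and 2 higher (13.3%) without overlap, beside 25% and 24.4% of all mRNAs tested. In mRNAs with a mean of at least 1 CPM the shares were 32.9% and 17.8%. Apart from PARS2, the only gene higher without overlap was YARS2, which was at 0 in both young livers and passed the filter through the old livers alone.

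Genes of mitochondrial transcription had 3 of 5 genes with a row, all 3 with a log2 fold change below 0 and a median of -0.90, though TFB2M, the third of them, was above 0 under TMM scaling. MTERF1, a factor that binds mitochondrial DNA at a transcription termination site, was at 3.21 and 3.32 CPM in YL and at 0.812 and 0.682 CPM in OL (log2 fold change -1.29, SE 0.12; limma adjusted p = 0.213). TEFM, the elongation factor of the mitochondrial RNA polymerase, was at 3.48 and 2.67 CPM in YL and at 1.25 and 1.10 CPM in OL (log2 fold change -0.90, SE 0.16; limma adjusted p = 0.223). In both genes the old livers lay far below the young livers, with replicates close together at each age. No gene of these lists passed the limma test.

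The remaining genes lay between -0.49 and 0.18. MRPL48, MRPL30 and MRPL49, picked out after their values were seen, were lower in both old livers with an unadjusted p under 0.05 and log2 fold changes of -0.49, -0.46 and -0.44. MRPL35, MRPL16 and MRPL9, picked out in the same way, were lower without overlap, at -0.46, -0.35 and -0.13. In the other genes, from MRPL13 at -0.40 to MRPL10 at 0.18, the ages overlapped. Across all 44 genes the median absolute log2 difference was 0.27 between the young livers, 0.22 between the old livers and 0.36 between the age means. In mRNAs with a mean of at least 1 CPM the values were 0.34, 0.40 and 0.44. A mean of 2 livers varies less than a single liver, so the last of these values is not on the same footing as the others.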

How the data were processed

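RNA sequencing of 4 livers (2 per age) was analysed. Alignment by the authors was to Sscrofa10.2 with TopHat2 2.0.14, and they assembled transcripts with StringTie 1.2.3. The mRNA values, named TPM after Salmon 0.6.0 by the authors, are CPM as deposited: in each library 100% of those above 0 were multiples of 1 fixed step (within 0.001 CPM), as whole reads would give, without division by gene length. Implied totals were 61.5 M to 91.8 M reads per library, which limits precision most in genes of few reads. The circRNA and miRNA tables were not used.

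Symbols were joined by identifier (11654 of 21607 matched). Main differences were tested with limma 3.58.1 in R 4.3.3 on log2(CPM + 1) over 16898 mRNAs above 0 in at least 2 libraries, adjusted by Benjamini-Hochberg over all of them. A fold change on this scale understates the change of low genes. Whole reads were tested with edgeR 4.0.16 (exact and quasi-likelihood) and DESeq2 1.42.0. Other pseudocounts, filters and scalings, a replicate block and leaving out each library were tried. Tables and plots were made with Python 3.11.15, pandas 2.3.3 and matplotlib 3.10.9.

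Members and lists were chosen with earlier results of these data known. Described with values were the 6 members of highest mean, up to 6 of largest difference in each direction without overlap (mean of at least 1 CPM), the MRPS18 paralogs, members known from inherited disease (MRPL44 and MRPS34 had a row), and up to 2 genes per pathway list by the same rule. Genes named outside this rule (among them MRPL9, MRPL16, MRPL30, MRPL35, MRPL48, MRPL49, MRPS9, ND4L, TFB2M and YARS2, and the neighbours ACTL6A and TWNK) were chosen after their values were seen. The marker list of B and plasma cells is not reported here.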

Additional observations from a re-analysis of the deposited data

How the results depend on the processing

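The direction of the 19 named members was recomputed in 16 other fits, giving 304 values, of which 3 reversed; in 4 of the fits (no filter, a mean of at least 1 CPM, limma trend and replicate block) the fold change is the same by construction. MRPS33 went to -0.27 without young replicate 1, and MRPS18B to -0.25 without young replicate 2 and -0.02 without old replicate 1; leaving out each liver in turn, they ranged from -0.27 to 1.91 and from -0.25 to 0.41. Past the thresholds were MRPL28, MRPL4 and MRPS18A with DESeq2, which called 3 members in place of 0. All mRNAs called were 0 with limma as described, 2 with a mean of at least 1 CPM (fewer mRNAs tested), 534 with the exact test and 880 with DESeq2. The members' median log2 fold change of -0.20 was -0.29 with a pseudocount of 0.1, -0.0726 with TMM, -0.0869 with size factors, -0.0564 as a share of listed mRNA reads, -0.0923 with the exact test, -0.0922 with the quasi-likelihood test and -0.11 with DESeq2. Its difference from the median of all mRNAs tested, -0.18, was -0.0529 with a mean of at least 1 CPM. Members lower in both old livers numbered 11 with TMM and 11 as a share of listed mRNA reads, in place of 17. The log2 ratio of summed levels, -0.16, was 0.0402 with TMM and 0.0150 with size factors. Leaving out 1 liver gave medians from -0.28 to -0.21, differences from all mRNAs from -0.25 to -0.19, summed levels from -0.24 to -0.07 (the last without young replicate 2), 33 to 35 members without overlap (23 to 25 lower and 10 higher, each against a single liver of 1 age) and 0 calls. Except for those scalings, the cause of these shifts was not tested. Same-numbered livers come from unrelated animals and their deviations from the age means correlated by 0.0902 across mRNAs, so they share only a number. A fit with the replicate block called 0 mRNAs and 0 members, with 4 members higher and 2 lower at an unadjusted p under 0.05, a smallest adjusted p of 0.344 and the same median of -0.20. Depth limits genes of few reads such as MRPS2 and MRPL3, and 2 animals per age limit every comparison.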
